A study of Homo sapiens with 8 samples.

Results

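The 8 genes described here are 5 caspases (CASP2, CASP4, CASP6, CASP8 and CASP9), the caspase-activating scaffold APAF1, and XIAP and BIRC2, which encode inhibitors of apoptosis proteins. They were taken by symbol from a list that was drawn up with earlier results of these data known, and all 8 were found among the 58302 genes of the deposited tables and among the 12392 genes with enough counts to be tested. RNA came from RD, a human rhabdomyosarcoma line, which is a tumour line of the skeletal muscle lineage. Of the 8 libraries, 4 came from cells with a scrambled short hairpin RNA (control) and 4 from cells with a hairpin against the homeobox transcription factor PROX1 (shPROX1), and the series describes the 4 of each group as biological replicates. All groups are 1 cell line grown in the same medium, and the number of hairpins and of clones is not given in the sources used here. The series title presents PROX1 as a regulator of stemness and growth in this tumour, so the comparison asks whether transcripts of the caspase machinery differed once PROX1 was silenced.

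Caspases are proteases that cleave other proteins after aspartate residues and that lie in cells as inactive precursors. Initiator caspases are switched on by assembly on a scaffold: CASP9 on the apoptosome that APAF1 forms with cytochrome c released from mitochondria, CASP8 on death receptors through the adaptor FADD, and CASP2 on the PIDDosome. Initiators then cleave executioner caspases, to which CASP6 is counted, and XIAP binds and blocks active CASP9, whereas BIRC2 (cIAP1) acts mainly as a ubiquitin ligase at TNF receptors. In myoblasts, caspase activity is also known to take part in differentiation without cell death.

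The libraries held 3747090 to 4865161 counts assigned to genes, 4055205 to 4865161 in control and 3747090 to 4301987 in shPROX1, which did not differ past the threshold (exact two-sided permutation p = 0.514, n = 4 per group, 70 arrangements). The share of counts in mitochondrial genes ranged more widely in control (0.098 to 0.702%) than in shPROX1 (0.12 to 0.278%, exact two-sided permutation p = 0.143). Values are CPM, counts scaled by the size and the TMM factor of the library, and are given as mean ± SD of 4 libraries. Changes are log2 differences, shPROX1 less control, ± their standard error in the edgeR fit, and a gene is called higher or lower where the adjusted p, over all 12392 tested genes, is under 0.05. PROX1 itself was 18.6 ± 2.50 CPM in control and 8.91 ± 1.16 CPM after silencing (log2 difference -1.07 ± 0.15, adjusted p by edgeR 4.89e-06), a decrease of 52.4% with a 95% interval of 41.1 to 61.4%, while the series states silencing of 75%. Control replicate 1 stood apart from the other libraries on the second principal component (13.1 against -6.19 to 3.12), which held 13.2% of the variance, whereas the first, with 67.7%, separated the groups. Of 7 muscle markers 6 were tested and MYF5 was at 0 counts, and their summed level was 1373 to 1409 CPM in control and 1144 to 1222 CPM in shPROX1. Most of that sum is DES and CHRNA1, and the markers moved unequally: MYOG (log2 change -1.32 ± 0.06, edgeR adjusted p = 1.65e-13), MYH8 (-1.22 ± 0.19), MYH3 (-0.94 ± 0.06) and DES (-0.18 ± 0.04) were lower, and MYOD1 (0.04 ± 0.07) and CHRNA1 (0.01 ± 0.04) were not called. Summed markers of epithelial cells, leukocytes and endothelium stayed at or under 2.42 CPM in each library, and those of fibroblasts, which were nearly all THY1, were 69.1 to 83.9 CPM in control and 98.6 to 105 CPM in shPROX1. The part of these marker differences in the results was not tested. In such bulk libraries, fewer cells with a transcript and less of it per cell cannot be told apart.

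Of the 8 genes, CASP2 and CASP4 were higher in shPROX1, CASP9 was lower, and CASP6, CASP8, APAF1, XIAP and BIRC2 passed the threshold in neither direction. The share called, 37.5%, was close to the 35.2% of all tested genes that were called in either direction (17.3% higher and 17.9% lower), so the count does not set these genes apart. Their median log2 change was 0.07, against -0.01 over all tested genes, and their median absolute change was 0.13, against 0.18. CPM did not overlap between the groups for 3 of the 8 genes, against 32.4% of all tested genes. Among all called genes, whose median absolute log2 change was 0.38, a smaller change than that of CASP9 was seen in 74.4%, than that of CASP4 in 42.9% and than that of CASP2 in 20.6%.

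**Figure D1:**
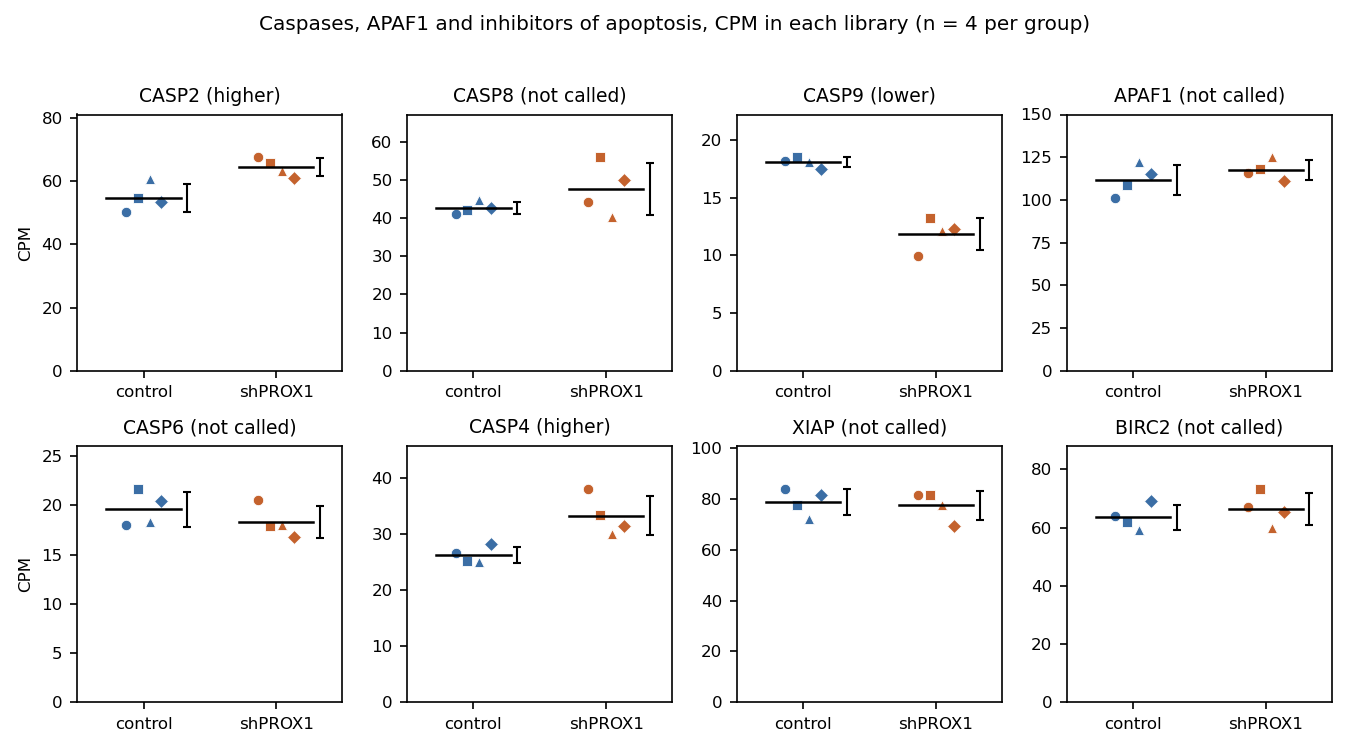
CPM (y axis, from 0) of the 8 genes in each of the 4 control (blue) and 4 shPROX1 (orange) libraries, with marker shapes for replicates 1 to 4, the mean as a line and the SD as a bar. The groups are apart for CASP2, CASP4 and CASP9, where control lies at 17.5 to 18.5 CPM and shPROX1 at 9.93 to 13.2 CPM, and overlap for the other 5 genes.

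CASP9, the initiator of the mitochondrial pathway, lies on chromosome 1 (minus strand, 15490832 to 15526534, GRCh38). It had 18.2, 18.5, 18.1 and 17.5 CPM in control replicates 1 to 4 and 9.93, 13.2, 12.1 and 12.3 CPM in shPROX1 replicates 1 to 4. Every shPROX1 library was below every control library, with shPROX1 replicate 1 the lowest of the 8. The mean fell from 18.1 ± 0.443 to 11.9 ± 1.37 CPM, a log2 change of -0.61 ± 0.13 (95% interval -0.87 to -0.34, edgeR adjusted p = 0.00073), or a decrease of 34.3% (21.0 to 45.3%). These values rest on 313 counts in control and 192 in shPROX1. The SD among the control libraries, 0.443 CPM, was smaller than the 2.05 CPM that counting alone would give at this depth, so the closeness of these 4 values cannot be read as the precision of 1 library. The change stayed between -0.66 and -0.53 in all 16 alternative settings and was called in each.

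The promoter of CASP9 is shown because this gene had the largest change of the 8, and that of CASP2 because it is the other initiator called, in the opposite direction. Both were chosen after the values were seen. Sequences are from RefSeq promoter windows (GRCh38.p14, 250 bases before to 50 after a start), which hold 15 entries for the 8 genes, and only bases outside annotated exons are printed, 5′ to 3′ on the gene's strand. For each gene, the longest unbroken run of such bases in 1 of its 2 windows is printed. The longest runs of the other windows, 20 bases for CASP9 and 250 for CASP2, hold 0 GC boxes and are not printed. Capitals mark the GC box, the letters GGGCGG on either strand, a motif known to be bound by the SP family of transcription factors.
CASP9, chr1:15524890-15525040, minus strand: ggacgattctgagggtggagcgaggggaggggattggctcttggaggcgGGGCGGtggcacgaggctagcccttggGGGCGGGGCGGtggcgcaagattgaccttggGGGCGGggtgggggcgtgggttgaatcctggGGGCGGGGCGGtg
CASP2, chr7:143288101-143288214, plus strand: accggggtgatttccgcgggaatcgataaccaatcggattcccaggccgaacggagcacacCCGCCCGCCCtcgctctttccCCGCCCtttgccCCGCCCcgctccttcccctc
The printed stretch of CASP9 holds 6 GC boxes and ends 100 bases before its RefSeq start, and that of CASP2 holds 4, of which neighbours may share bases. Over their whole windows of 300 bases, the 2 CASP9 entries hold 8 and 9 GC boxes, the 2 CASP2 entries 4 and 0, and the 1 CASP4 entry 1. Entries of CASP6, CASP8, APAF1, BIRC2 and XIAP hold 0 to 3. At least 1 GC box was found in 45.0% of all 35116 promoter windows, and at least 8 in 0.812%. The cut of 8 equals the lower of the 2 CASP9 counts, and the windows were not matched for GC content, so this share is no test. GC content was 76.0% and 71.3% in the CASP9 windows and 71.3% and 43.0% in those of CASP2, against a median of 58.7% over all windows. It was 72.0% in that of CASP6, 71.3% in that of APAF1 and 68.7% and 74.0% in those of BIRC2. The windows of CASP8 had 46.3%, 43.0% and 54.3%, and those of XIAP 48.0%, 68.0% and 60.3%. GC content was 39.7% in that of CASP4, which lies wholly in annotated exons and is not printed. The E-box letters CANNTG, which 68.7% of all windows hold, are absent from both windows of CASP9 and of CASP2, from those of CASP4 and APAF1 and from 1 of BIRC2. CCAAT, found in 34.6%, is in 1 window each of CASP9, CASP2 and CASP8 and in those of CASP4 and APAF1. These matches describe the letters of the windows and show no binding.

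CASP2, the initiator caspase of the PIDDosome, lies on chromosome 7 (plus strand, 143288215 to 143307696). It had 50.3, 54.6, 60.7 and 53.4 CPM in control replicates 1 to 4 and 67.6, 65.8, 63.4 and 61.1 CPM in shPROX1 replicates 1 to 4. The lowest shPROX1 library lay only just above the highest control library, and the groups overlapped when counts were divided by the library total without TMM factors. The rise from 54.8 ± 4.37 to 64.5 ± 2.83 CPM was a log2 change of 0.24 ± 0.07 (95% interval 0.09 to 0.38, edgeR adjusted p = 0.0116), or 17.9% (6.46 to 30.6%). It was called in all 16 alternative settings, at 0.20 to 0.29.

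CASP4, a caspase of the inflammatory group that senses bacterial lipopolysaccharide in the cytosol and cleaves gasdermin D, lies on chromosome 11 (minus strand, 104942866 to 104969436). It had 26.7, 25.2, 25.1 and 28.2 CPM in control replicates 1 to 4 and 38.1, 33.5, 30.1 and 31.4 CPM in shPROX1 replicates 1 to 4. The groups did not overlap, and shPROX1 replicate 1 was the highest library. The mean rose from 26.3 ± 1.48 to 33.3 ± 3.50 CPM, a log2 change of 0.34 ± 0.10 (95% interval 0.14 to 0.54, edgeR adjusted p = 0.0089), or 26.4% (9.96 to 45.4%). This call depended on shPROX1 replicate 1: without it the change was 0.27 and the adjusted p by edgeR was 0.0542.

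CASP8, the initiator caspase of death receptors, lies on chromosome 2 (plus strand, 201233443 to 201287711). Its control libraries lay close together at 41.1 to 44.6 CPM, whereas the shPROX1 libraries spread over 44.2, 55.9, 40.3 and 50 CPM in replicates 1 to 4. The lowest and the highest of the 8 values were both in shPROX1. The log2 change of 0.16 ± 0.09 did not pass the threshold (95% interval -0.02 to 0.34, edgeR adjusted p = 0.165). Without shPROX1 replicate 3 it was 0.23 and passed it (adjusted p = 0.0421), and without shPROX1 replicate 2 it was 0.08 (adjusted p = 0.543).

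APAF1, the scaffold of the apoptosome, lies on chromosome 12 (plus strand, 98645141 to 98735433), and had the highest level per kb of exon of the 8 genes in control. In CPM it had 101, 109, 122 and 115 CPM in control replicates 1 to 4 and 116, 118, 125 and 111 CPM in shPROX1 replicates 1 to 4, so that the groups overlapped in part. The log2 change was 0.07 ± 0.06 (95% interval -0.06 to 0.20, edgeR adjusted p = 0.413), and the interval leaves room for an increase of up to 14.6% or a decrease of up to 3.94%.

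CASP6, an executioner caspase known for cleaving lamin A, lies on chromosome 4 (minus strand, 109688622 to 109703583). It ranged from 18.0 to 21.7 CPM in control and from 16.8 to 20.6 CPM in shPROX1, with a log2 change of -0.10 ± 0.12 (95% interval -0.34 to 0.14, edgeR adjusted p = 0.546). With 341 counts in control and 297 in shPROX1, this was among the 3 least well counted of the 8 genes together with CASP9 and CASP4, and a decrease of up to 21.2% lies within its interval. It shares 105 exon bases (5.40% of its own) with MCUB, which lies on the plus strand. The strand setting of the counting is not given, so how reads there were counted is not known.

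XIAP, the direct inhibitor of CASP9, lies on chromosome X (plus strand, 123859724 to 123913979). It ranged from 72.1 to 83.9 CPM in control and from 69.4 to 81.5 CPM in shPROX1, with a log2 change of -0.03 ± 0.07 (95% interval -0.17 to 0.11, edgeR adjusted p = 0.792). Its sign was not stable, at 0.00 without control replicate 1 and 0.02 without shPROX1 replicate 4. BIRC2, on chromosome 11 (plus strand, 102347211 to 102378670), ranged from 59.1 to 69.2 CPM in control and from 59.9 to 73.3 CPM in shPROX1. Its log2 change was 0.06 ± 0.07 (95% interval -0.09 to 0.21, edgeR adjusted p = 0.552). The intervals of the 2 inhibitors reach a decrease of 11% for XIAP and an increase of 15.8% for BIRC2, and larger changes lie outside them.

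**Figure D2:**
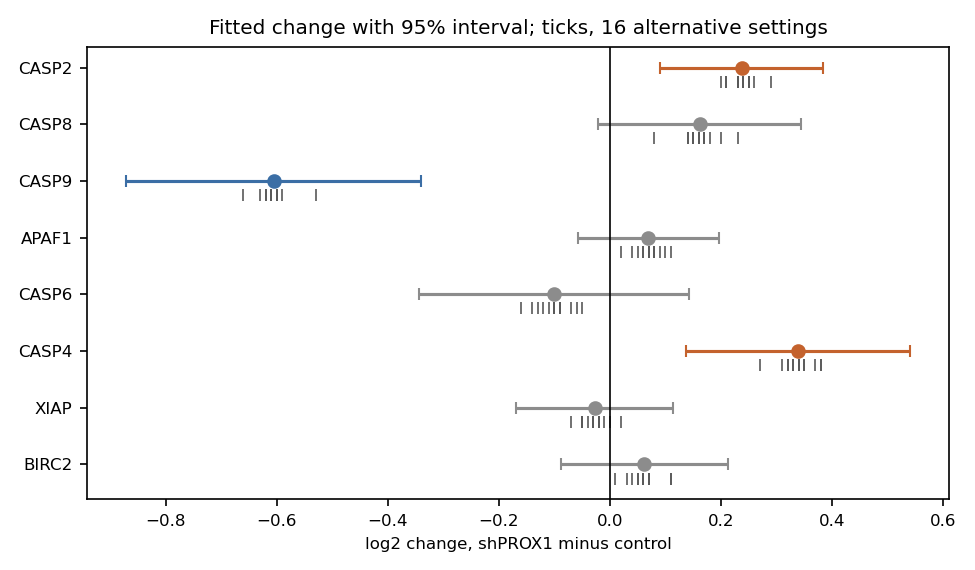
Log2 change (x axis, shPROX1 minus control) of the 8 genes with its 95% interval, in orange for higher, blue for lower and grey for not called. The ticks under each gene are its values in the 16 alternative settings, which reach both sides of 0 for XIAP and stay on 1 side for the other 7 genes.

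Levels per kb of exon, from the union of all annotated exons, put the 8 genes in order in the control libraries. APAF1 (14.1 ± 1.14 CPM per kb) and BIRC2 (14.0 ± 0.944 CPM per kb) were highest and did not differ beyond their spread. CASP6 followed at 10.1 ± 0.923 CPM per kb and overlapped XIAP at 8.73 ± 0.575 CPM per kb. CASP2 (6.83 ± 0.545 CPM per kb) and CASP8 (5.89 ± 0.200 CPM per kb) came next without overlap with each other or with XIAP. CASP4 (3.62 ± 0.205 CPM per kb) and CASP9 (3.43 ± 0.0841 CPM per kb) were lowest and overlapped. An exon union that includes rarely used exons lowers these values by an amount that differs between genes.

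Ratios of counts per kb between genes of the same library show how their balance moved, and need no scaling between libraries. The pairs were chosen after the values were seen and are a description, with no test. CASP9 over APAF1 was 0.271, 0.255, 0.222 and 0.228 in control replicates 1 to 4 and 0.128, 0.167, 0.146 and 0.166 in shPROX1 replicates 1 to 4, so that each shPROX1 library was lower. CASP9 over its inhibitor XIAP was 0.394 ± 0.0304 in control and 0.264 ± 0.0396 in shPROX1, without overlap. CASP2 over CASP9, a ratio of 2 initiators, was 1.99 ± 0.164 in control and 3.62 ± 0.575 in shPROX1, also without overlap. BIRC2 over XIAP overlapped between the groups, at 1.61 ± 0.0734 and 1.71 ± 0.147.

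**Figure D3:**
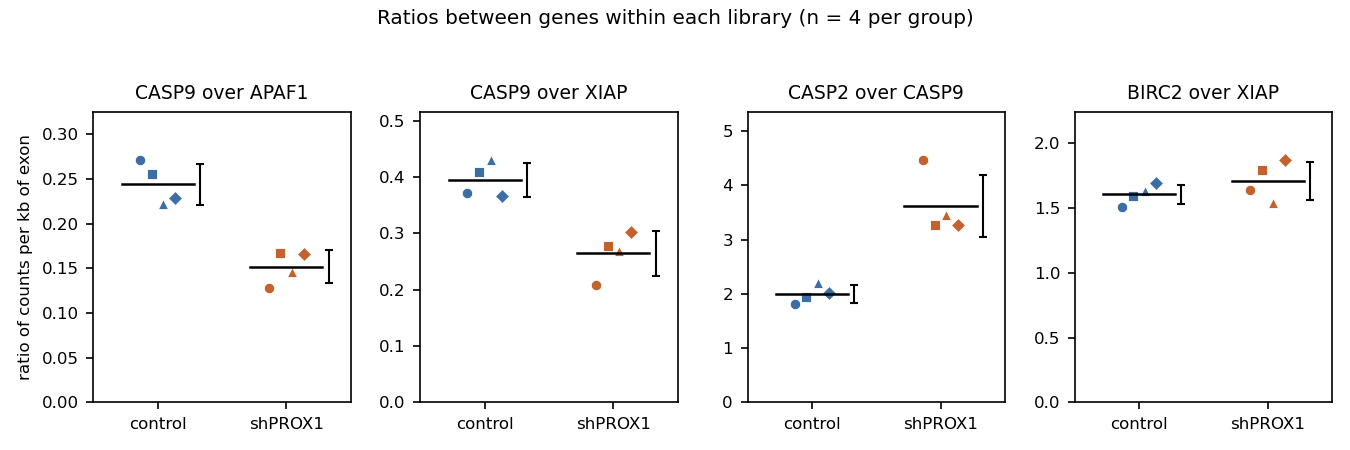
Ratio of counts per kb of exon (y axes, from 0) for 4 pairs of genes in each control (blue) and shPROX1 (orange) library, with the mean as a line and the SD as a bar. CASP9 is lower against APAF1 and XIAP and CASP2 higher against CASP9 in every shPROX1 library, while BIRC2 over XIAP overlaps between the groups.

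Other genes of the same machinery were read from 9 lists by role, which hold 112 genes. Of these 111 were matched to an identifier and 85 were tested, 14 were higher and 16 lower, and the share called, 35.3%, was again near the 35.2% of all tested genes. The first list holds 5 other caspases, none with enough counts to be tested. CASP1 had 2 counts in control and 0 in shPROX1, and CASP10 had 4 and 1. CASP5, CASP12 and CASP14 had 0 counts in all 8 libraries. In 1 library, 0 counts allow up to 3 counts or 0.609 to 0.806 CPM by counting error alone. The limit from 0 counts in all 8 together is lower. The inflammatory caspase CASP4 was thus measured without its relatives CASP1 and CASP5, and the death receptor initiator CASP8 nearly without CASP10.

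Among the 6 other BIRC genes, 2 were tested by edgeR, 0 were higher (0 also at an unadjusted p under 0.05, with DESeq2 and with voom) and 1 was lower. BIRC5 (survivin), which works in mitosis, was 225 ± 7.74 CPM in control and 203 ± 3.09 CPM in shPROX1 (a change of -0.15 ± 0.05, edgeR adjusted p = 0.0176), and lost its call without shPROX1 replicate 1 (adjusted p = 0.0542) and with no filter on low counts (0.0801). BIRC6, a very large ubiquitin ligase, was at 311 ± 20.2 and 286 ± 7.28 CPM and was not called (log2 change -0.12 ± 0.05, adjusted p = 0.0789), but was without control replicate 1 (adjusted p = 0.0161) and with the library total alone (0.037). BIRC3, the close relative of BIRC2, was too low to test, with 3 counts over the 4 control libraries and 12 over the 4 shPROX1 libraries. It was named after its values were seen.

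Antagonists and regulators of the inhibitors were tested for 6 of 8 genes, with 0 higher (0 also at an unadjusted p under 0.05, with DESeq2 and with voom) and 1 lower by edgeR. Called were 16.7% of those tested, against 35.2% of all tested genes. SEPTIN4, whose ARTS isoform binds XIAP, had 28.8, 33.3, 35.9 and 34.1 CPM in control replicates 1 to 4 and 12.1, 13.4, 11.6 and 10.9 CPM in shPROX1 replicates 1 to 4. It fell from 33 ± 3.01 to 12 ± 1.08 CPM (log2 change -1.46 ± 0.12, edgeR adjusted p = 9.26e-10), and the counts do not separate its isoforms. The other 5 tested genes were not called. The one with the highest CPM among them, MAGED1, was 76.8 ± 4.93 CPM in control and 67.9 ± 7.41 CPM in shPROX1 (log2 change -0.18 ± 0.07, adjusted p = 0.0624), and was called without control replicate 1 (0.0384) or shPROX1 replicate 3 (0.0085) and with the library total alone (0.0395). DIABLO and HTRA2, mitochondrial proteins that displace caspases from XIAP, were named after their values were seen and changed by 0.05 ± 0.15 and 0.00 ± 0.08 on the log2 scale, not called.

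All 8 mitochondrial and apoptosome factors were tested, and 2 were higher and 1 lower (37.5% called, against 35.2% of all tested genes). CYCS (cytochrome c) rose from 415 ± 11.3 to 484 ± 20.1 CPM (log2 change 0.22 ± 0.04, edgeR adjusted p = 0.000475). HSPE1, a mitochondrial chaperonin subunit, rose from 149.8 ± 5.81 to 185 ± 9.70 CPM (0.30 ± 0.05, adjusted p = 0.000108). Its partner HSPD1, the gene of highest CPM among those not called, was at 2172 ± 62.0 and 2236 ± 92.5 CPM (0.04 ± 0.03, adjusted p = 0.355). AVEN, known to bind APAF1, was at 17.7 ± 1.71 and 13.8 ± 1.81 CPM and overlapped between the groups (-0.35 ± 0.13, adjusted p = 0.0402). Its call was lost without any 1 of control replicates 1, 2 and 3 or shPROX1 replicates 1, 2 and 3, with adjusted p by edgeR up to 0.123, with DESeq2 (0.116) and with no filter on low counts (0.0911).

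The death receptor list, the partners of CASP8, had 13 of 20 genes tested, 4 higher and 2 lower. Of those tested, 46.2% were called, against 35.2% of all tested genes. MLKL, the effector of necroptosis, rose from 9.34 ± 0.660 to 16.9 ± 3.28 CPM (log2 change 0.86 ± 0.15, edgeR adjusted p = 0.000135), while the kinase RIPK3 that acts on it had 0 counts in all 8 libraries. TNFRSF10D, a decoy receptor for TRAIL, rose from 15.0 ± 1.26 to 21.6 ± 0.856 CPM (0.52 ± 0.11, adjusted p = 0.00105). DEDD2, a death effector domain protein, rose by 0.46 ± 0.09 (adjusted p = 0.000426), and the death receptor TNFRSF21 by 0.35 ± 0.07 (adjusted p = 0.000717). CASP8AP2, a protein known to bind CASP8, and DAXX were the 2 lower genes, at log2 changes of -0.29 ± 0.08 and -0.24 ± 0.07 (adjusted p = 0.00971 and 0.00703), and are named after their values were seen. The TRAIL receptor TNFRSF10B was the gene of highest CPM among those not called, at 154 ± 4.23 and 146 ± 6.80 CPM (-0.08 ± 0.05, adjusted p = 0.248). FAS had 6 counts in control and 4 in shPROX1, TNFRSF10A had 2 and 3, TNF 1 and 0, and FASLG 0 in all libraries.

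None of the 4 PIDDosome partners of CASP2 was called by edgeR, and 0 passed at an unadjusted p under 0.05, with DESeq2 or with voom. Over all tested genes, 35.2% were called. Their changes ran from -0.23 to 0.12, and the one of highest CPM, NPM1, was at 1989 ± 37.4 and 2038 ± 107 CPM (log2 change 0.04 ± 0.04, adjusted p = 0.467).

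Of the 22 TNF receptor and NF-kappaB partners of BIRC2 and XIAP, 20 were tested, and 2 were higher and 2 lower. MAP3K14 (NIK), the kinase of the noncanonical NF-kappaB pathway whose protein BIRC2 marks for destruction together with TRAF2 and TRAF3, had 9.69, 7.41, 9.88 and 7.11 CPM in control replicates 1 to 4. It had 24.6, 25.8, 29.3 and 31.2 CPM in shPROX1 replicates 1 to 4, so that each of these was far above each control library. The mean rose from 8.52 ± 1.47 to 27.7 ± 3.04 CPM (log2 change 1.70 ± 0.14, edgeR adjusted p = 1.4e-09), the largest change of all 9 lists. TRAF2 and TRAF3, named after their values were seen, were not called (-0.01 ± 0.12 and 0.07 ± 0.08). NFKB1 rose from 55.3 ± 3.11 to 65.1 ± 2.98 CPM (0.23 ± 0.07, adjusted p = 0.00973). TAB1, an XIAP-binding partner of the kinase TAK1, fell from 23.0 ± 4.13 to 15.3 ± 3.72 CPM with an overlap between the groups (-0.58 ± 0.15, adjusted p = 0.00558). IKBKB was at 64.2 ± 7.01 and 55.2 ± 4.71 CPM with an overlap between the groups (-0.22 ± 0.08, adjusted p = 0.0395). The call of IKBKB was lost without control replicate 4 (0.203), shPROX1 replicate 2 (0.128), 3 (0.0949) or 4 (0.0687) and with DESeq2 (0.0925). CHUK, the gene of highest CPM among those not called, was at 126 ± 8.26 and 128 ± 5.82 CPM (0.02 ± 0.06, adjusted p = 0.815).

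The inflammasome and pyroptosis partners of CASP4 had 7 of 14 genes tested, 3 higher and 1 lower. Of these 7, 57.1% were called, against 35.2% of all tested genes. GBP2 rose from 15.1 ± 2.91 to 28.2 ± 1.24 CPM (log2 change 0.90 ± 0.12, edgeR adjusted p = 4.44e-06). Its relative GBP1, a protein that coats bacteria and recruits CASP4, was at 20.2 ± 2.09 and 25 ± 1.09 CPM (0.32 ± 0.11, adjusted p = 0.0249). The call of GBP1 was lost without control replicate 4 (0.099), shPROX1 replicate 1 (0.058), 2 (0.052) or 4 (0.058) and with DESeq2 (0.0823). GSDME, another gasdermin, rose from 15.6 ± 1.15 to 22.5 ± 2.35 CPM (0.52 ± 0.12, adjusted p = 0.00135). GSDMD, the gasdermin cleaved by CASP4, fell from 21.2 ± 3.94 to 15.0 ± 1.99 CPM with an overlap between the groups (-0.49 ± 0.14, adjusted p = 0.0101). CARD8 was not called, at 31.6 ± 2.53 and 29.9 ± 3.61 CPM (-0.08 ± 0.10, adjusted p = 0.574). IL1B and PYCARD had 0 counts in all libraries.

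All 25 caspase substrates were tested, and 3 were higher and 8 lower (44.0% called, against 35.2% of all tested genes). Over all tested genes, 17.3% were higher and 17.9% lower, and the difference of the list from these shares was not tested. VIM (vimentin) rose from 1188 ± 34.5 to 1964 ± 19.0 CPM (log2 change 0.73 ± 0.03, edgeR adjusted p = 4.61e-14). The kinase STK3 fell from 35.4 ± 3.26 to 24.2 ± 1.78 CPM (-0.55 ± 0.10, adjusted p = 0.000111), the spindle protein NUMA1 from 297 ± 15.2 to 217 ± 11.4 CPM (-0.46 ± 0.05, adjusted p = 3.77e-07), and the actin-severing GSN from 190.1 ± 16 to 151 ± 4.41 CPM (-0.33 ± 0.06, adjusted p = 9.29e-05). STK4, the relative of STK3, was not called at 154 ± 8.33 and 140 ± 6.39 CPM (-0.14 ± 0.06, adjusted p = 0.0541), but was without control replicate 1 (0.0141) or shPROX1 replicate 4 (0.0488), with upper-quartile factors (0.0403) and with the library total alone (0.0259). The number lower was 5 without control replicate 4 or without shPROX1 replicate 1.

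**Figure D4:**
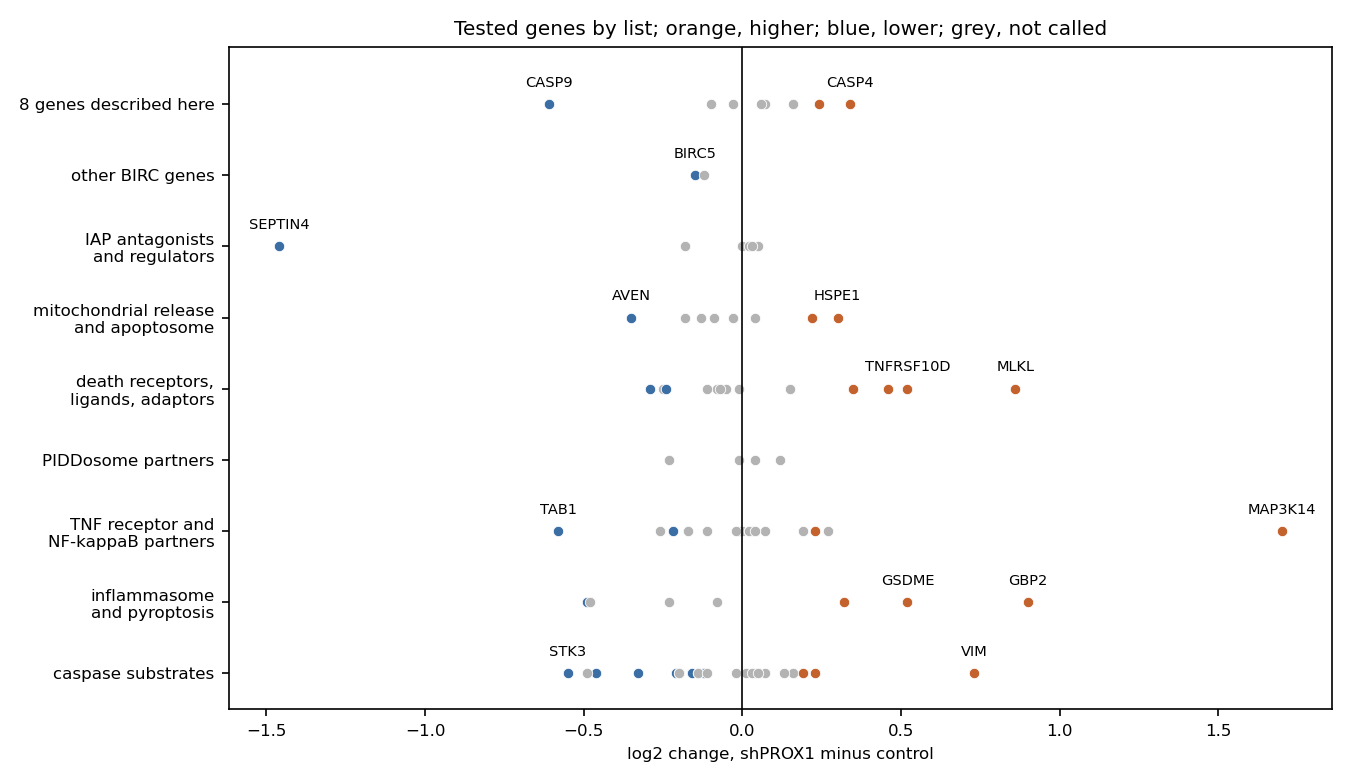
Log2 change (x axis, shPROX1 minus control) of each tested gene of the 8 and of the 8 lists with tested genes, in orange for higher, blue for lower and grey for not called. Most points lie between -0.5 and 0.5, and the 5 farthest from 0 are MAP3K14 at 1.70, SEPTIN4 at -1.46, GBP2 at 0.90, MLKL at 0.86 and VIM at 0.73.

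Genes near the 8 on the chromosome were read to see whether the changes extended along it. Within 100 kb, 17 neighbours were tested, 4 were higher and 4 lower (47.1% called, against 35.2% of all tested genes), and CASP4 had none. In GENCODE, where CASP9 extends upstream of the RefSeq start used for the printed promoter, 278 bases lie between it and DNAJC16, which is transcribed in the opposite direction and was not called (log2 change -0.12 ± 0.11, edgeR adjusted p = 0.43). Farther off, EFHD2 was higher (0.38 ± 0.09, adjusted p = 0.00261) and DDI2 lower (-0.31 ± 0.08, adjusted p = 0.005), so that the called genes around CASP9 moved both ways. CASP2 had ZYX as its called neighbour (0.31 ± 0.09, adjusted p = 0.01), and CASP8 had TRAK2 (0.20 ± 0.06, adjusted p = 0.00943). The groups overlapped in CPM for ZYX. CFLAR, an inhibitor of CASP8 activation that lies 56755 bases away from it and is named after its values were seen, was not called (-0.01 ± 0.07, adjusted p = 0.948).

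In GENCODE, APAF1 shares its start region with IKBIP, a divergent gene whose start lies 27 bases away. The bases between the 2 genes are shown because the genes start on either side of them. They end 150 bases before the RefSeq start of APAF1 and hold no GC box on either strand. The whole RefSeq window of APAF1 holds 1 GC box.
APAF1 and IKBIP, chr12:98645114-98645140, plus strand: cacgccccgtccgcggggtaggcgggc
IKBIP rose by 0.23 ± 0.06 on the log2 scale (95% interval 0.10 to 0.36, edgeR adjusted p = 0.00505), while APAF1 was at 0.07 ± 0.06. The intervals overlap, and the difference between the 2 genes was not tested. Other called neighbours of APAF1 were lower: SLC25A3 (-0.28 ± 0.04, adjusted p = 1.51e-05), TMPO (-0.18 ± 0.04, adjusted p = 0.00101) and the small nucleolar RNA SNORA53 (-1.10 ± 0.32, adjusted p = 0.00909), which was at 6.88 CPM in control. SNORA53 lies within SLC25A3 on the same strand, and both count among the tested neighbours. Its groups overlapped, at 4.82 to 10.6 CPM in control and 1.07 to 4.97 CPM in shPROX1. APAF1 shares 750 exon bases (9.48% of its own) with ANKS1B and CASP9 shares 106 (2.01%) with CELA2B. ANKS1B was at 0.110 CPM in control and 0.264 CPM in shPROX1, and CELA2B was at 0.

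Over the 8 libraries, the genes whose log2 CPM followed that of CASP9 most closely were FXYD6 (Pearson r 0.99), CA11 (0.988) and E2F5 (0.984). This is a description over 8 libraries that share the group difference, and 613 genes had an r over 0.9. Within groups, r was 0.973, 0.898 and 0.858, for genes picked by their r over the same libraries. The SD of CASP9 was 0.443 CPM in control and 1.37 CPM in shPROX1. Both are below the 2.05 and 1.72 CPM that counting alone would give, so these r cannot tell shared variation from counting noise.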

How the data were processed

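RNA of 8 RD libraries (4 control, 4 shPROX1) was prepared with a directional kit, per the labels' protocols. The authors deposited raw counts per gene, 1 table per library. The submitters' processing notes list GRCh38 (hg38) as build and, as tools, DESeq2, HTSeq, HISAT2 and FastQC. Versions and the strand setting of the counting are not given in the sources used here. Of 58302 identifiers, 58039 matched GENCODE 29, which gave symbols, exons and coordinates (1-based, GRCh38); 0 entries named no gene.

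The test was that of edgeR 4.0.16 under R 4.3.3 (filterByExpr, TMM factors, quasi-likelihood F test, group only, Benjamini-Hochberg over 12392 genes, threshold 0.05). The biological coefficient of variation was 6.41%. Chi-square per degree of freedom between libraries of a group was 2.39 to 6.34 in control and 1.19 to 2.16 in shPROX1. All were above sampling noise, less so in shPROX1, and none was merged. The members and lists were chosen with earlier results of these data known. Some related genes are not reported here. Named were the 8 members, PROX1, from each list up to 4 called genes of at least 1 CPM with the largest change and the uncalled gene of highest CPM, called neighbours within 100 kb, and the 3 genes most like the member that changed most. Alternatives were other scaling factors, filters and tools (DESeq2 1.42.0, limma 3.58.1 voom), a replicate block and each library left out. Tested on simulated data for shPROX1 against control (12392 genes, 200 changed), the share of changed genes found was 71.6% (67 genes, log2 change 0.5), 89.6% (67 genes, log2 change 1) and 98.5% (66 genes, log2 change 2), and 0.082% of 12192 genes without a change were called. The simulation gave all genes 1 dispersion and changed far fewer genes than the 35.2% called here, so these shares do not carry over directly. Its smallest change, 0.5, was larger than those of CASP2 (0.24) and CASP4 (0.34). Limits and intervals cover the spread between libraries, and 0 counts in 1 library allow 0.609 to 0.806 CPM by counting error only. Figures and sequences used Python 3.11.15.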

Additional observations from a re-analysis of the deposited data

Results flagged for a closer look

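Among 74 groups of 4 libraries (the 8 genes and the named genes of the lists, in control and in shPROX1), 2 held 1 library far from the other 3, beyond Dixon's 95% critical value, where chance gives about 1 in 20 groups. Neither was in the 8 genes. NFKB1 had 50.6 CPM in control replicate 2, against 56.5 to 57.0 CPM in the other control libraries. GBP1 had 23.4 CPM in shPROX1 replicate 3, against 25.3 to 25.7 CPM in the others.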

How the results depend on the processing

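Under 16 alternatives (RLE, upper-quartile or no scaling factors beyond the library total, no filter, at least 1 CPM in 4 libraries, DESeq2, voom, a replicate block and each of 8 libraries left out), CASP2 (0.20 to 0.29) and CASP9 (-0.66 to -0.53) stayed called, and CASP6 (-0.16 to -0.05), APAF1 (0.02 to 0.11) and BIRC2 (0.01 to 0.11) stayed uncalled. Scaling by the library total alone was added after seeing the data. CASP4 ran from 0.27 to 0.38 over the leave-one-out fits and lost its call at 0.27. CASP8 ran from 0.08 to 0.23 and was called at 0.23. XIAP ran from -0.07 to 0.02, with the opposite sign at 0.00 and 0.02. CHUK turned to 0.00 with the library total alone and ran from -0.02 (without control replicate 3) to 0.06 with a library left out. Leaving out single libraries gave 1 to 3 of the 8 genes higher and 1 lower. Over all tested genes 2147 were higher and 2217 lower, against 1822 and 1661 with DESeq2 and 1908 and 2479 with the library total alone.

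The numbers lower in the lists moved as follows. Other BIRC genes gave 2 with the library total alone, 0 with no filter and 0 to 2 with a library left out, and antagonists of the inhibitors 2 with the library total alone and 1 to 2. Mitochondrial factors gave 0 with no filter or DESeq2 and 0 to 2, TNF receptor partners 1 with DESeq2 and 1 to 3, pyroptosis partners 2 with the library total alone and 1 to 2, and substrates 5 with no filter and 5 to 8. The cause of these shifts was not tested.

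The sample titles number the libraries but do not say whether equal numbers are pairs. Same-numbered libraries deviated together at r of -0.0508 to 0.0501, and the others at -0.179 to 0.129. Such values cannot decide it, since pairs without a shared effect would give them too. With the replicate block, all genes gave 2075 higher and 2112 lower, the 8 genes kept their calls, antagonists of the inhibitors had 2 lower (MAGED1 added, adjusted p by edgeR 0.0393) and mitochondrial factors 0 (AVEN lost, 0.0585). Of the 8 genes, CASP9 had the fewest counts, 42 to 86 in a library.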
